A study of Mus musculus with 66 samples.

Results

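Recovery of the mouse mid-colon from chemical injury was followed between 2 days of one time course, day 9 and day 14. The members were the 6 mid-colon samples of those days among the 66 samples of the series, chosen by section and day in the sample labels: 3 mice killed at day 9 (mice 11, 12 and 13) and 3 other mice killed at day 14 (mice 14, 15 and 16). Every group was C57Bl/6, bought at 6 weeks of age, with no allele or further agent named in the labels, and came from a cohort that received 3% dextran sulfate sodium (DSS, a sulfated polysaccharide that strips the colonic epithelium) for 6 days from day 0. Mice killed at day 0 were the uninjured reference (4 mice, numbered 1 to 4). The labels call the section mid-colon as a source and give its position as prox, and they give no sex. The rectum of the same 6 mice served as the neighbouring section. Because different mice were killed on each day, a difference between days is one between mice, and p-values measure the spread among 3 mice a day.

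The mucosal surface was cut from the dissected colon wall and its polyadenylated RNA was sequenced. Values are TPM, a relative abundance adjusted for transcript length, summed per gene. In such bulk tissue, fewer cells of a type and less RNA per cell cannot be told apart.

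The colonic epithelium renews from dividing cells at the crypt base. Their daughters leave the cell cycle as they move up and become absorptive colonocytes, mucus-filled goblet cells or hormone-secreting enteroendocrine cells. After DSS, neutrophils and monocytes enter the mucosa and surviving crypt cells divide to cover the gaps, while IgA from plasma cells, carried across the epithelium, forms part of the barrier.

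The 6 libraries were of similar breadth, with 12021 to 12258 genes at 1 TPM or more at day 9 and 11779 to 12307 at day 14. Read counts are not part of the table used here, so the depth of each library is unknown. Mitochondrial transcripts took 12.2% to 19.5% of the total at day 9 and 17.1% to 25.6% at day 14. Across genes, the day 14 libraries correlated with each other at r between 0.957 and 0.968 on the log2 scale and the day 9 libraries at between 0.969 and 0.974. Mouse 14 stood closest to uninjured tissue, with r of 0.963 to 0.979 against the 4 day 0 libraries, where mouse 15 had 0.934 to 0.946 and mouse 16 had 0.923 to 0.938. That the tissue was colonic mucosa was checked on 2 markers, which were not used to tell mid-colon from rectum. Lypd8, a protein of the colonocyte surface, was listed at 13274 TPM or more in each of the 6 libraries. Muc2, the gel-forming mucin of goblet cells, was at 813 TPM or more.

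Between day 9 and day 14 nearly all cell cycle genes of the list fell in mid-colon. A few neutrophil and chemokine genes were lower too, but no neutrophil call held with every mouse left out in turn. Part of the transcripts of absorption, mucus and detoxification rose, though not all of these had been below uninjured levels at day 9. B and plasma cell transcripts increased. limma with Benjamini-Hochberg adjustment called 2425 of 12317 tested genes at an adjusted p under 0.05 (19.7%), of which 785 were higher at day 14 (6.37%) and 1640 lower (13.3%). Over the 12317 genes the median difference was -0.12 (log2). With TMM scaling factors the median became 0.03 and the split 1433 higher and 1684 lower, so that the share of higher calls moved from 32.4% to 46.0%. Leaving out mouse 12, 13, 14 or 16 lowered the number of calls to 1078, 1119, 1603 or 1276, and without mouse 11 or 15 it was 2316 or 2364. All adjusted p-values below are from limma with Benjamini-Hochberg adjustment over all tested genes, and changes are differences of log2(TPM + 1), which understates the change of genes near 0.

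**Figure D1:**
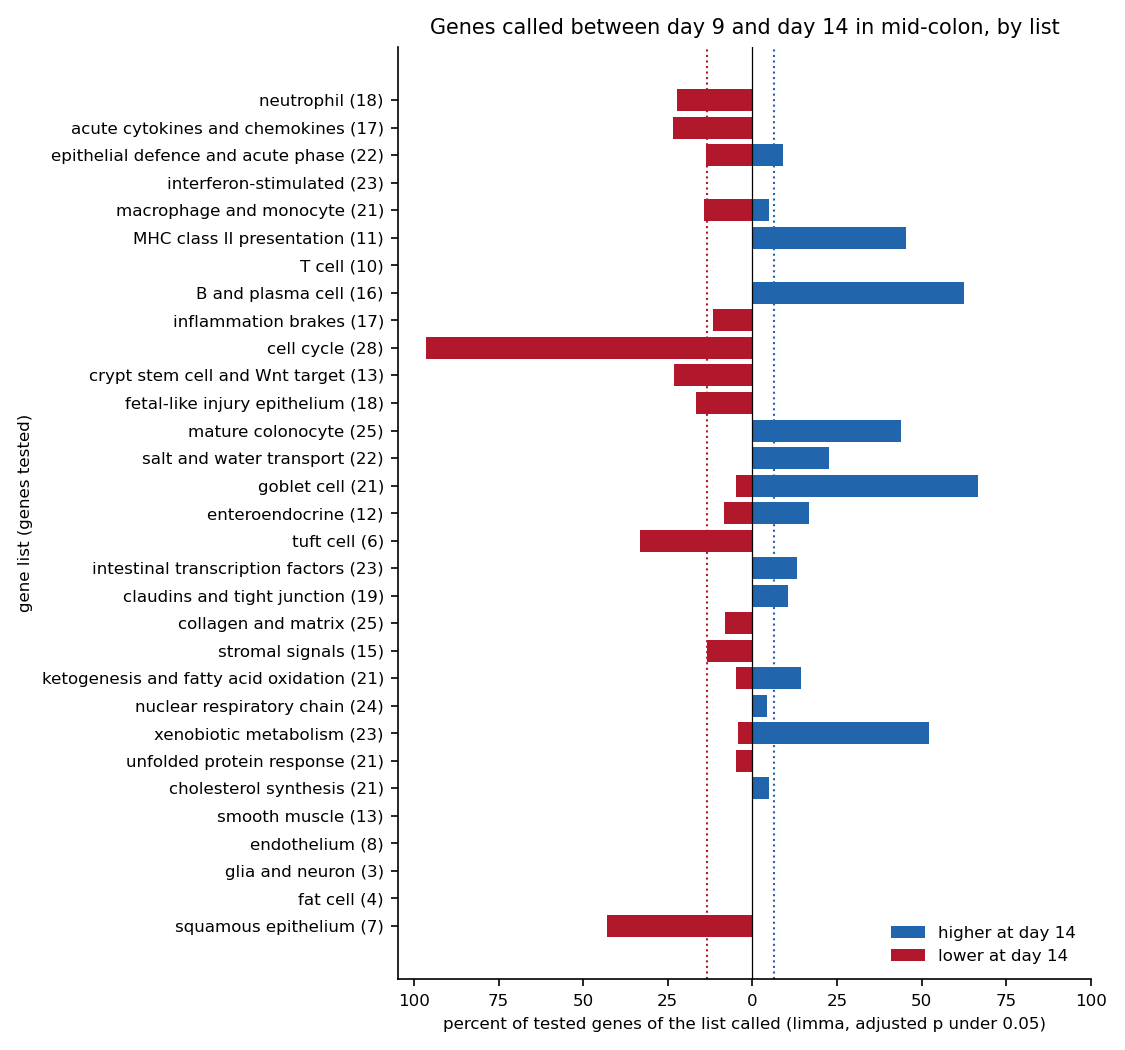
Percent of the tested genes of each of 31 gene lists that were called higher (blue, to the right) or lower (red, to the left) at day 14 than at day 9 in mid-colon. Dotted lines mark 6.37% higher and 13.3% lower over all tested genes; cell cycle genes reach far to the left, and goblet cell, B and plasma cell, xenobiotic metabolism and mature colonocyte genes to the right.

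Cell division genes formed the most complete change: 27 of the 28 genes of the cell cycle list were lower at day 14, against 13.3% of all tested genes, and in these 27 no day 14 mouse reached the lowest day 9 mouse (23.6% of all tested genes fell without overlap). The median change of the list was -2.37. Rrm2, a subunit of the ribonucleotide reductase that supplies deoxynucleotides, was listed at 39.5, 83.1 and 54.2 TPM in day 9 mice 11, 12 and 13 and at 1.20, 8.15 and 4.00 TPM in day 14 mice 14, 15 and 16. It fell by 3.62 ± 0.50 (SE) on the log2 scale, adjusted p = 0.00374. Every day 9 mouse was far above every day 14 mouse, and the lowest value of all 6 was that of mouse 14. Ccnb1, the cyclin B that drives entry into mitosis, was at 81.6, 118 and 105 TPM at day 9 and at 10.8, 14.8 and 13.0 TPM at day 14 (-2.88 ± 0.21, adjusted p = 0.00188). Its kinase partner Cdk1 went from 109, 163 and 148 TPM to 13.5, 23.4 and 24.9 TPM (-2.73 ± 0.27, adjusted p = 0.00191). The 3 mice of a day lay close together for both genes, and the days were far apart. Mki67, the proliferation antigen, was at 42.0, 72.8 and 54.2 TPM at day 9 and at 7.08, 11.9 and 11.9 TPM at day 14 (-2.34 ± 0.28, adjusted p = 0.00256).

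The fall covered each phase of division. Among S-phase genes, the subunits Mcm2 to Mcm7 of the replicative helicase changed by -2.26 to -2.73, and Pcna, the sliding clamp of the DNA polymerases, went from 337, 416 and 350 TPM to 70.8, 106 and 113 TPM (-1.94 ± 0.22, adjusted p = 0.00226). Among mitotic genes, the kinase gene Aurka changed by -3.03 ± 0.34 (adjusted p = 0.00223) and Top2a, which untangles chromosomes, by -2.44 ± 0.39 (adjusted p = 0.00638). Plk1 and the transcription factor gene E2f1 had the smallest falls of the list, -1.23 ± 0.31 and -1.06 ± 0.27. The one member that was not called was Cdkn1a, an inhibitor of cyclin-dependent kinases, at 108, 192 and 138 TPM at day 9 and 255, 212 and 144 TPM at day 14 (0.47 ± 0.28, adjusted p = 0.272). Its groups overlapped. Of the 27 calls, 24 held with each mouse left out in turn, and the exceptions were Mcm3, Plk1 and E2f1, all lost without mouse 12.

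At day 14 none of the 27 cell cycle genes tested against day 0 was called. This is near the 4.36% of all tested genes and does not show equal levels. The median difference of the list from day 0 was 0.33 (log2). Ccnb1 was at 13.6, 17.9, 13.4 and 5.59 TPM in the 4 day 0 mice, which enclosed the 3 day 14 values. The mean log2(TPM + 1) over the list was 2.42 to 3.28 in day 0 mice, 5.13, 6.01 and 5.59 in day 9 mice and 2.69, 3.77 and 3.49 in day 14 mice. Mice 15 and 16 thus lay above the day 0 range and mouse 14 within it.

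**Figure D2:**
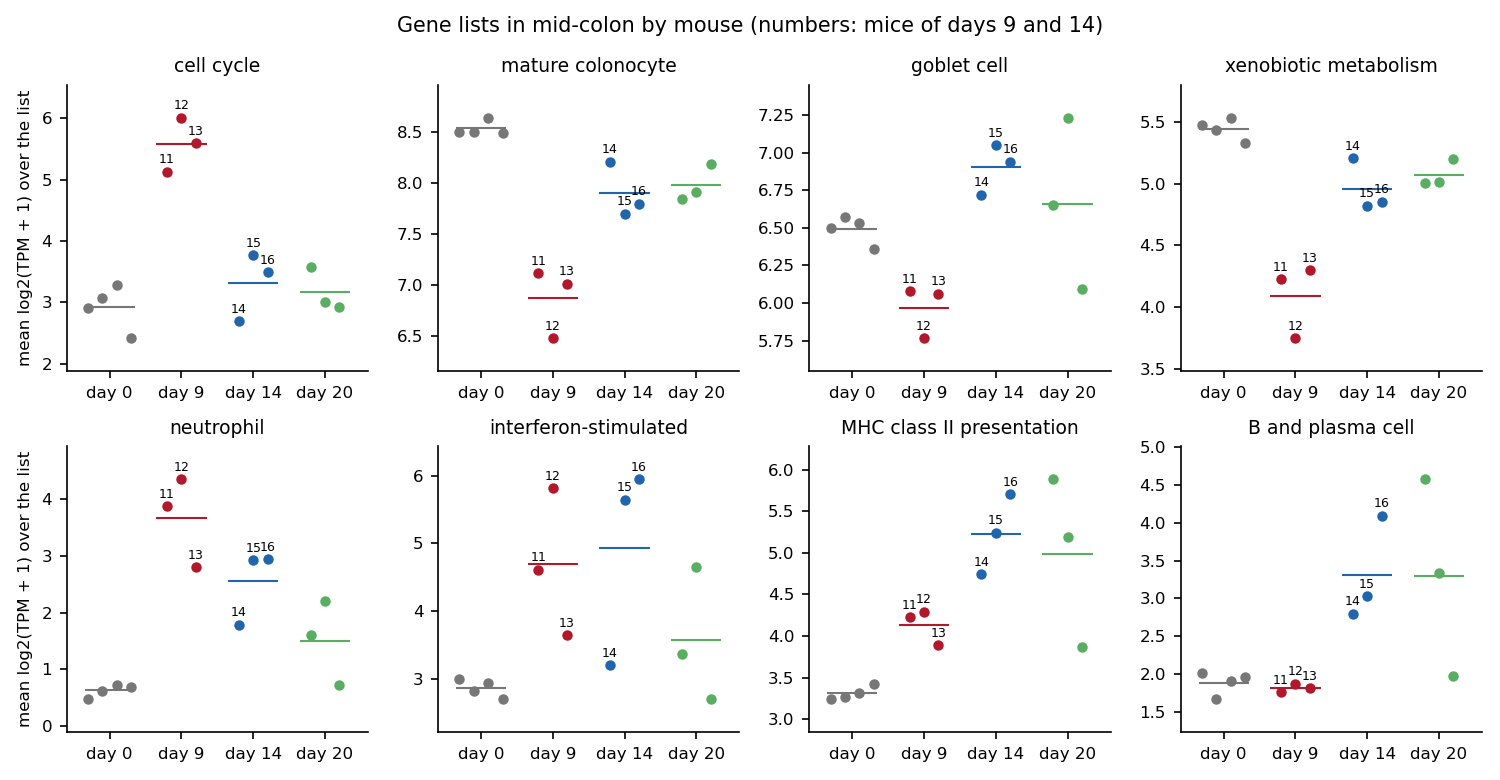
Mean log2(TPM + 1) over 8 gene lists in mid-colon at days 0, 9, 14 and 20, with 1 point per mouse, a horizontal line at the group mean and the numbers of the mice of days 9 and 14. Cell cycle genes peak at day 9 and are lower at day 14, colonocyte and xenobiotic genes dip at day 9, goblet and B and plasma cell genes are higher at day 14, and interferon genes are as high in mice 15 and 16 as at day 9 but low in mouse 14.

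Genes of the cell cycle are known to share short promoter elements: the CCAAT box bound by NF-Y, the CHR element bound by the DREAM and MuvB complexes, and E2F sites. The promoters of the 4 matched genes with the largest fall are shown because these genes moved together. They are the 150 bases before the annotated RefSeq start (build GRCm38.p6), 5′ to 3′ on the gene's strand, with CCAAT and TTTNGCGC, read on either strand, in capitals.
Rrm2, chr12:24708104-24708253, plus strand: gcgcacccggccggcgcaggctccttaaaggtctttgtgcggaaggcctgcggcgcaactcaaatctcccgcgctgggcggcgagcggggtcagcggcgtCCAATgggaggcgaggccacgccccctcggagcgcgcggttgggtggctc
Aurka, chr2:172370571-172370720, minus strand: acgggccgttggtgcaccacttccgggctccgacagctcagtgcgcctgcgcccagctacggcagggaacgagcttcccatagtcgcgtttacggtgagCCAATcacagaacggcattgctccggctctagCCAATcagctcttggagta
Ccnb1, chr13:100786487-100786636, minus strand: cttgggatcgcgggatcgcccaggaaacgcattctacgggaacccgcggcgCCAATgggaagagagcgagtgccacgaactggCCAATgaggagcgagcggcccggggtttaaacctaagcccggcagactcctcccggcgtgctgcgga
Mcm5, chr8:75109359-75109508, plus strand: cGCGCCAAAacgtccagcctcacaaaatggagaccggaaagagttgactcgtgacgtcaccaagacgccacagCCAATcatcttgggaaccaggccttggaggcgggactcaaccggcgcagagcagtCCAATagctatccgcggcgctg

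In these windows Rrm2 has 1 CCAAT, whose first base lies 50 bases before the start. Aurka has CCAAT at 51 and 19 bases, Ccnb1 at 99 and 67 bases, and Mcm5 at 77 and 22 bases, with a TTTNGCGC on the opposite strand at 149 bases. Of the 27 lowered genes, 23 matched the promoter table. Over the 250 bases before the start, on either strand, CCAAT was present in 18 of the 23 (78.3%), against 34.5% of 27025 genes and 36.7% of the 9124 tested genes that matched. TTTGAA, the core of the CHR element, was present in 7 of the 23 (30.4%), against 16.3% of all genes and 10.9% of tested genes. The E2F-type motif TTTNGCGC was present in 3 (13.0%), against 1.15% and 2.01%. Both CCAAT and TTTGAA were present in 7 (30.4%), among them Cdk1, Cdc20, Top2a and Ccnb2, against 5.73% of all genes and 4.23% of tested genes. Each motif was searched separately, matches were allowed to overlap, and a match describes letters, not binding.

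Of the 12 genes with the largest fall, 7 lay outside the lists, and several of these act in DNA replication and repair. Hells, a chromatin remodeller of dividing cells, was at 26.2, 33.4 and 31.7 TPM at day 9 and at 0.940, 2.29 and 2.84 TPM at day 14 (-3.43 ± 0.28, adjusted p = 0.00188). Exo1 and Fignl1, which act in homologous recombination, changed by -2.79 ± 0.37 and -2.81 ± 0.29, and Ect2, needed for cytokinesis, by -2.80 ± 0.23. Psat1, an enzyme of serine synthesis, changed by -2.86 ± 0.43. Krt36, a hair-type keratin gene, was at 29.2, 19.5 and 19.2 TPM at day 9 and at 0.957, 3.20 and 2.13 TPM at day 14 (-2.98 ± 0.31, adjusted p = 0.00194).

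**Figure D3:**
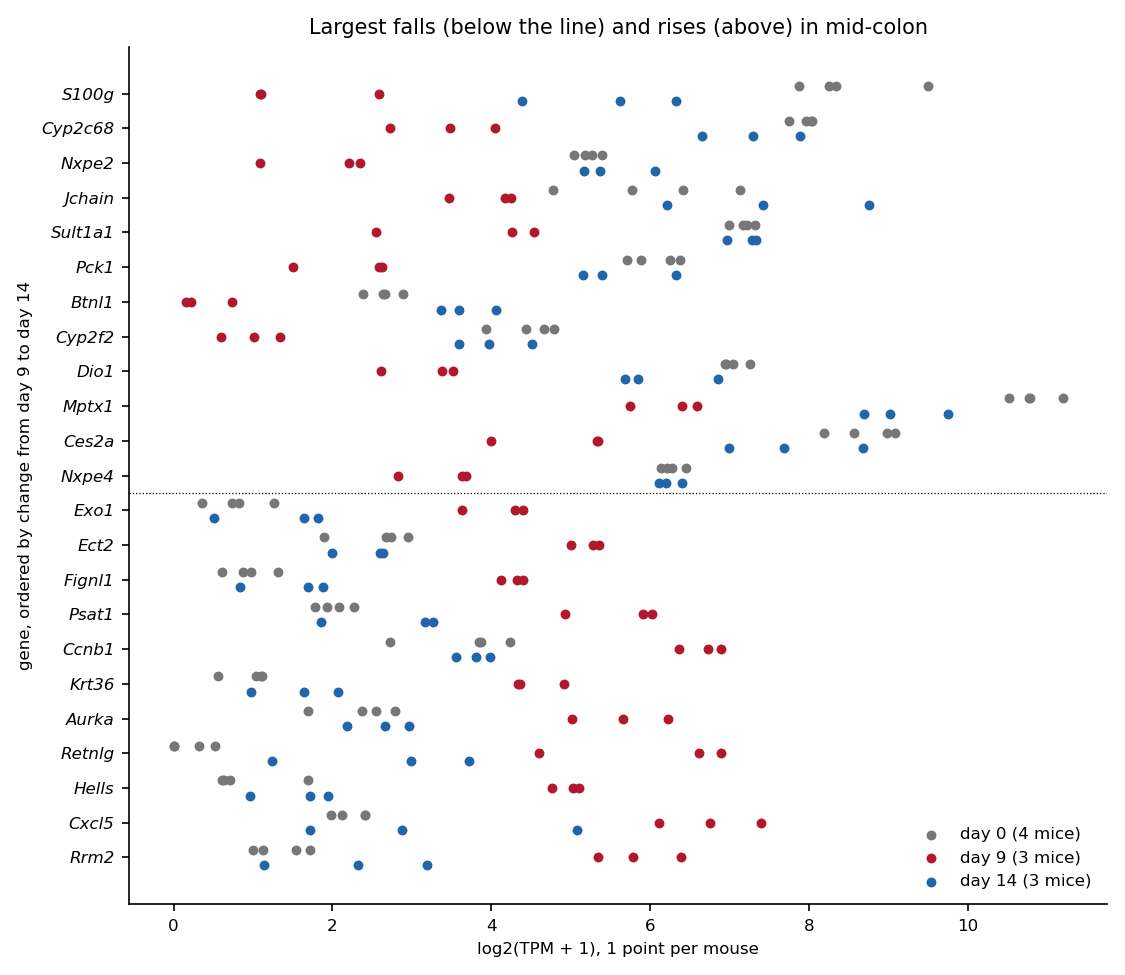
The 12 called genes, immunoglobulin and predicted genes and genes under a mean of 8 TPM left out, with the largest rise (above the line) and 11 of the 12 with the largest fall (below it) from day 9 to day 14 in mid-colon, as log2(TPM + 1) with 1 point per mouse (day 0 grey, day 9 red, day 14 blue). No day 14 point overlaps a day 9 point in these genes, which was part of how they were chosen; S100g, Mptx1 and Dio1 stay below the day 0 points at day 14 and Btnl1 lies above them.

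Stem cell and Wnt target genes gave few calls. Of 13 tested members, 3 were lower at day 14 (13.3% of all tested genes) and none higher, with a median of -0.24. Cdca7 (-1.52 ± 0.36, adjusted p = 0.0215), Myc (-1.36 ± 0.36, adjusted p = 0.0314) and Cd44 (-1.22 ± 0.31, adjusted p = 0.0301) were those 3, all of them also active in dividing cells. All 3 calls were lost without mouse 12 or 13. Cdca7 was also lost without mouse 16, Myc without mouse 14 and Cd44 without mouse 11, 14 or 16. Axin2, the feedback inhibitor of Wnt signalling, was at 1.64, 3.73 and 2.33 TPM at day 9 and at 1.35, 3.21 and 1.54 TPM at day 14 (-0.24 ± 0.30, adjusted p = 0.618). Lgr5, the receptor that marks crypt base stem cells, was too low to be tested, at 0.0389 to 0.625 TPM in the 6 libraries.

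Genes of the fetal-like state that injured colonic epithelium adopts gave few calls, with a median of -0.44. Of 18 tested, 3 were lower, a share near the 13.3% of all tested genes, and none was higher. Il33, an alarmin released by damaged cells, was at 12.8, 26.8 and 25.3 TPM at day 9 and at 2.49, 3.55 and 1.03 TPM at day 14 (-2.76 ± 0.37, adjusted p = 0.00363). Emp1, a membrane protein gene, went from 239, 259 and 219 TPM to 83.2, 154 and 66.1 TPM (-1.32 ± 0.30, adjusted p = 0.0188), and Cd55, which restrains complement, from 205, 99.5 and 122 TPM to 55.3, 66.1 and 47.9 TPM (-1.26 ± 0.28, adjusted p = 0.0180). For these 3 genes the day 14 values lay below all day 9 values. Leaving out mouse 16 or 13 ended the calls of Cd55 and Emp1, and leaving out mouse 12 that of Emp1, while Il33 held throughout.
Ly6a (Sca-1), the marker most used for this state, was at 3589, 5793 and 3593 TPM at day 9 and at 497, 2592 and 3512 TPM at day 14 (-1.35 ± 0.65, adjusted p = 0.183). Mouse 14 was below the day 0 mice (575 to 936 TPM) and mouse 16 just under the day 9 mice. Clu, another gene of this state, was at 10.4, 6.67 and 9.98 TPM at day 9 and 71.1, 11.1 and 19.5 TPM at day 14 (1.41 ± 0.57, adjusted p = 0.125). With TMM factors 2 members of the list were called higher.

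The neutrophil signal at day 14 was lower in a few genes and, with the gene Ly6g left out, remained above uninjured tissue. Of 18 tested neutrophil genes, 4 were lower at day 14 and none higher (13.3% of all tested genes were lower), with a median change of -1.08. S100a8, a subunit of the calprotectin that neutrophils carry in bulk, was at 607, 1012 and 226 TPM at day 9 and at 26.7, 131 and 176 TPM at day 14 (-2.59 ± 0.75, adjusted p = 0.0443). Retnlg, a secreted resistin-like protein of neutrophils, was at 97.0, 118 and 23.3 TPM and then at 1.37, 6.92 and 12.2 TPM (-3.39 ± 0.74, adjusted p = 0.0172). Mouse 13 had the lowest day 9 value and mouse 16 the highest day 14 value of both genes, so that the groups came close without overlapping. Mmp8, the neutrophil collagenase, changed by -1.99 ± 0.52 (adjusted p = 0.0314). Csf3r, the G-CSF receptor, overlapped between the days, at 5.57, 19.5 and 4.91 TPM and 4.69, 12.8 and 7.17 TPM (-0.10 ± 0.51, adjusted p = 0.908). Ly6g, the fourth call, was listed at 532 to 954 TPM in uninjured mice, and its reads cannot be told apart with certainty from those of near-identical Ly6 genes.
None of the 4 calls held with every mouse left out in turn: no neutrophil gene was called without mouse 12, 1 without mouse 11 or 16, 2 without mouse 14 or 15 and 6 without mouse 13. Without Ly6g, the summed abundance of the list was 0.978 to 5.70 TPM at day 0, 1389, 2422 and 518 TPM at day 9 and 88.4, 368 and 486 TPM at day 14. By these sums the day 14 mucosa stayed far above uninjured tissue. Ly6g was left out after its values had been seen. With Ly6g, the sums of the full list overlapped, at 533 to 959 TPM at day 0 and 512, 966 and 1013 TPM at day 14. Of the 13 neutrophil genes tested against day 0, 12 were higher at day 14 (2.55% of all tested genes). A gene near 0 in uninjured mice could enter that test only through the day 14 mice. The count was therefore largely set by the filter and adds no support to the sums without Ly6g.

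Among 17 tested cytokine and chemokine genes, 4 were lower at day 14 (13.3% of all tested genes) and none higher, and all 4 were chemokines. Cxcl5, an epithelial attractant of neutrophils, was at 107, 168 and 68.2 TPM at day 9 and at 2.28, 32.7 and 6.31 TPM at day 14 (-3.53 ± 0.75, adjusted p = 0.0158). Cxcl1, which binds the same receptor, was at 16.2, 6.90 and 9.21 TPM and then at 0.394, 2.01 and 1.49 TPM (-2.35 ± 0.37, adjusted p = 0.00587). Both stood apart between days, with mouse 15 the highest of the day 14 mice. Ccl8 and Ccl7, which attract monocytes, changed by -1.91 ± 0.36 (adjusted p = 0.0106) and -1.41 ± 0.29 (adjusted p = 0.0136). Cxcl1 and Ccl8 held with every mouse left out in turn, Ccl7 was lost without mouse 13 and Cxcl5 without mouse 12 or 16.
Il1b, the central pyrogenic cytokine, did not differ beyond the spread between mice: it was at 51.4, 188 and 26.7 TPM at day 9 and at 21.2, 81.8 and 97.1 TPM at day 14 (-0.20 ± 0.76, adjusted p = 0.879). Day 0 mice had 0.218 to 0.571 TPM of it, and every day 14 mouse was above that range (5.32 ± 0.45 against day 0). Il1b could enter the test against day 0 only through the day 14 mice, so no p-value is given as support. Tnf overlapped between days too, at 16.1, 14.3 and 7.43 TPM and 0.507, 7.94 and 8.05 TPM (-1.39 ± 0.66, adjusted p = 0.179).

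Of 22 epithelial defence genes, 3 were lower and 2 higher at day 14, shares near those of all tested genes (13.3% and 6.37%). Lower were Reg3b, an antibacterial lectin (4.52, 24.6 and 5.77 TPM, then 0.0510, 1.31 and 1.41 TPM; -2.45 ± 0.58, adjusted p = 0.0226), S100a11 (-1.69 ± 0.38, adjusted p = 0.0181) and the acute phase gene Saa2, which shares sequence with Saa1 (-0.84 ± 0.24, adjusted p = 0.0424). Pigr, the receptor that carries IgA through epithelial cells, was higher, at 557, 486 and 671 TPM at day 9 and 849, 1390 and 1256 TPM at day 14 (1.01 ± 0.23, adjusted p = 0.0193). Reg4, a lectin of deep crypt secretory cells, went from 342, 167 and 349 TPM to 579, 684 and 609 TPM (1.20 ± 0.29, adjusted p = 0.0233), above the 197 to 210 TPM of day 0 (adjusted p = 0.00093 against day 0). Without mouse 16 none of the 5 was called, without mouse 15 Pigr and Reg4 were not, and the call of Saa2 was lost whichever mouse was left out.
Lcn2 and Slpi, a siderophore-binding protein and a protease inhibitor, were not called, although the days did not overlap in either. Slpi was at 1017, 835 and 766 TPM at day 9 and at 44.0, 346 and 356 TPM at day 14 (-2.29 ± 0.71, adjusted p = 0.0562). Lcn2 was at 133, 63.0 and 19.5 TPM and then at 3.38, 16.6 and 14.0 TPM (-2.41 ± 0.73, adjusted p = 0.0509). Retnlb, an antimicrobial product of goblet cells, ranged over the day 14 mice from 1.30 TPM in mouse 14 to 52.5 TPM in mouse 15 and 372 TPM in mouse 16, around day 9 values of 21.1, 48.8 and 44.5 TPM (-0.04 ± 1.53, adjusted p = 0.987).

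Interferon-stimulated genes did not separate the days and varied widely among the mice of each day. None of 23 tested members was called and in none did the groups separate (14.5% of all tested genes separated upwards and 23.6% downwards); the list median was 0.15. Gbp2, an interferon-induced GTPase, was at 276, 409 and 61.8 TPM in mice 11, 12 and 13 and at 31.9, 336 and 452 TPM in mice 14, 15 and 16 (-0.17 ± 1.03, adjusted p = 0.926). Mouse 14 was the lowest of the 6, and mice 15 and 16 were at the level of mouse 12. Ido1, which degrades tryptophan and is induced by interferon-γ, was at 27.0, 86.7 and 12.8 TPM and 11.8, 198 and 202 TPM (1.31 ± 1.09, adjusted p = 0.439), again lowest in mouse 14.
The mean log2(TPM + 1) over the interferon list was 2.70 to 3.00 at day 0, 4.61, 5.81 and 3.65 at day 9 and 3.21, 5.65 and 5.95 at day 14. Its median change depended on single mice: it was 1.02 without mouse 14, 0.65 without mouse 12 and -0.26 without mouse 13, and no gene was called in any of these fits. The epithelial gene Nos2, an inducible nitric oxide synthase, had the same spread at day 14 (1.16, 83.9 and 44.1 TPM; -0.68 ± 1.27, adjusted p = 0.746).

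Of 21 tested macrophage and monocyte genes, 3 were lower and 1 higher, shares near those of all tested genes (13.3% and 6.37%), with a median of -0.30. Cd68, a lysosomal glycoprotein of macrophages, was at 18.3, 20.1 and 20.6 TPM at day 9 and at 9.63, 10.5 and 7.90 TPM at day 14. It fell by 1.00 ± 0.19 on the log2 scale (adjusted p = 0.0102). Chil3, a chitinase-like product of myeloid cells, went from 21.2, 31.8 and 8.45 TPM to 0.0378, 5.96 and 2.03 TPM (-2.77 ± 0.69, adjusted p = 0.0267), and Spp1 (osteopontin) from 1.62, 3.61 and 2.26 TPM to 0.148, 0.521 and 0.876 TPM (-1.20 ± 0.27, adjusted p = 0.0196). Mice of the 2 days did not overlap in these 3 genes. Spp1 was under 1 TPM in every day 14 mouse, so it entered the test only through the day 9 mice. The general macrophage genes Adgre1 and Csf1r were not called (-0.25 ± 0.18 and -0.06 ± 0.27), and C1qa, the complement component made by resident macrophages, was at 59.1, 42.8 and 38.6 TPM and 36.7, 47.7 and 46.8 TPM (-0.08 ± 0.22, adjusted p = 0.825).
The member that rose was Mertk, a receptor for the uptake of dying cells, at 1.39, 1.75 and 2.55 TPM at day 9 and 7.80, 5.74 and 5.39 TPM at day 14 (1.34 ± 0.23, adjusted p = 0.00760). Uninjured mice had 6.63 to 11.8 TPM of it. Of the 4 calls, that of Mertk held with every mouse left out in turn. Cd68 was lost without mouse 13, Chil3 without mouse 11, 12 or 16 and Spp1 without mouse 12, 13 or 14.

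Of 17 tested feedback inhibitors of inflammation, 2 were called lower (13.3% of all tested genes) and none higher, with a median of -0.33. Socs3, the inhibitor of STAT3 signalling, was at 106, 74.9 and 104 TPM at day 9 and at 5.23, 28.8 and 24.0 TPM at day 14 (-2.51 ± 0.54, adjusted p = 0.0159), still above the 0.795 to 2.54 TPM of day 0 (adjusted p = 0.0236 against day 0). Alox5, the 5-lipoxygenase of leukotriene synthesis, changed by -0.93 ± 0.27 (adjusted p = 0.0450). The call of Socs3 was lost without mouse 13 and that of Alox5 in 5 of the 6 fits with a mouse left out. Il1rn, the antagonist of the IL-1 receptor, was at 95.0, 119 and 93.2 TPM and 92.2, 118 and 109 TPM (0.06 ± 0.18, adjusted p = 0.861). Il10 was too low to be tested, at 0.715, 0.375 and 0.202 TPM at day 9 and 0.0464, 0.108 and 0.0802 TPM at day 14.

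Transcripts of MHC class II antigen presentation were higher at day 14. Of 11 tested members, 5 were called higher (6.37% of all tested genes) and none lower, with a median of 1.02. H2-Eb1 and H2-Aa, which encode chains of the presenting molecules, were the called members with the largest change. H2-Eb1 was at 45.6, 61.6 and 41.8 TPM at day 9 and at 99.5, 127 and 200 TPM at day 14 (1.46 ± 0.28, adjusted p = 0.0111). H2-Aa was at 144, 174 and 125 TPM and then at 243, 325 and 861 TPM (1.47 ± 0.42, adjusted p = 0.0440). All day 14 mice were above all day 9 mice, and mouse 16 was the highest. H2-Oa and H2-Ob, which form a peptide-loading modulator found in B cells, changed by 0.98 ± 0.18 (adjusted p = 0.0100) and 0.99 ± 0.19 (adjusted p = 0.0110), and Ctss, the protease that trims the invariant chain, by 0.94 ± 0.21 (adjusted p = 0.0172). Cd74, the invariant chain, overlapped because of mouse 14, at 92.8, 109 and 72.4 TPM and 104, 273 and 483 TPM (1.40 ± 0.49, adjusted p = 0.0812).
Without mouse 14, 9 of the 11 were called, and without mouse 13 only H2-Eb1 was, with 3 called without mouse 12 or 16. Only the call of H2-Eb1 held with every mouse left out in turn. That of H2-Aa was lost when any mouse other than 14 was left out. Against day 0, 9 of 10 tested members were higher at day 14, against 2.55% of all tested genes; H2-Aa was at 51.1 to 63.8 TPM in uninjured mice.

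B cell and plasma cell genes rose together. Of 16 tested members, 10 were higher at day 14 (6.37% of all tested genes) and none lower, with a median of 1.28, and 8 of the 10 calls held with each mouse left out in turn; the exceptions were Cd79b, lost without mouse 13 or 16, and Ms4a1, lost without mouse 13. Among genes of B cells, Cd79a, a signalling chain of the B cell receptor, was at 3.79, 2.05 and 2.12 TPM at day 9 and at 9.57, 8.09 and 9.45 TPM at day 14 (1.49 ± 0.23, adjusted p = 0.00572). Ighm, the constant region of IgM, went from 8.12, 4.94 and 5.46 TPM to 22.8, 16.8 and 23.7 TPM (1.63 ± 0.24, adjusted p = 0.00467). The 3 day 14 mice lay close together in both genes, and all were above the day 0 mice, in which Cd79a was at 0.465 to 0.847 TPM.
Among genes of plasma cells the day 14 mice differed more. Igha, the constant region of IgA, was at 16.9, 44.1 and 36.8 TPM at day 9 and at 111, 528 and 1232 TPM at day 14 (3.74 ± 0.78, adjusted p = 0.0146). Jchain, which joins IgA into dimers, was at 10.1, 18.0 and 17.1 TPM and then at 73.2, 171 and 430 TPM (3.50 ± 0.56, adjusted p = 0.00635). Mouse 14 was the lowest and mouse 16 the highest of the day 14 mice in both. Mzb1, a chaperone of antibody secretion, followed the same order, with 0.970, 1.70 and 1.52 TPM and 5.45, 15.1 and 43.3 TPM (2.81 ± 0.59, adjusted p = 0.0155). Unlike the B cell genes, the plasma cell genes overlapped the uninjured range, where Igha was at 52.4 to 253 TPM, and the difference of Igha from day 0 was not called (1.93 ± 0.76, adjusted p = 0.189).
Immunoglobulin transcripts together made up 0.0212% to 0.0452% of the total at day 9 and 0.135%, 0.391% and 0.962% at day 14. Ighg2c was listed at 0 in the 3 day 9 mice and at 0.318, 1.11 and 35.9 TPM in mice 14, 15 and 16. Quantification cannot always separate near-identical immunoglobulin segments. The share of lymphoid tissue in each cut sample is not known, and its part in these changes, or that of B cells in the rise of the MHC class II genes, was not tested.

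Of 10 tested T cell genes none was called, with a median of 0.01. Of all tested genes 6.37% were higher and 13.3% lower, so no call among so few genes is near those shares. Cd3g, a chain of the T cell receptor complex, was at 3.55, 2.43 and 1.76 TPM at day 9 and at 1.75, 3.35 and 6.83 TPM at day 14 (0.37 ± 0.38, adjusted p = 0.535). Gzmb, a cytotoxic granule protease, was at 5.41, 4.86 and 1.00 TPM and 0.168, 2.11 and 3.04 TPM (-0.79 ± 0.56, adjusted p = 0.366). In both, values of the days overlapped, and the other 12 genes of the list were under the level set for testing.

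Absorptive colonocyte genes recovered to different degrees. Of 25 tested members, 11 were higher at day 14 (6.37% of all tested genes) and none lower, with a median of 0.79. The largest change among the called members belonged to S100g, the vitamin D-dependent calcium-binding protein calbindin-D9k, at 4.99, 1.14 and 1.13 TPM at day 9 and 48.4, 20.0 and 79.3 TPM at day 14 (3.86 ± 0.55, adjusted p = 0.00444). It was still below the 234 to 721 TPM of uninjured mice (-3.04 ± 0.48, adjusted p = 0.0147 against day 0). Aqp8, a water channel of the surface epithelium, was at 99.4, 97.4 and 226 TPM and then at 1122, 355 and 826 TPM (2.40 ± 0.47, adjusted p = 0.0116), and Slc26a3, the chloride-bicarbonate exchanger that is lost in congenital chloride diarrhoea, at 285, 94.1 and 228 TPM and then at 938, 529 and 640 TPM (1.89 ± 0.41, adjusted p = 0.0162). Mouse 14 was highest and mouse 15 lowest of the day 14 mice in both.
Guca2a, which encodes guanylin, a regulator of fluid secretion, rose from 490, 206 and 351 TPM to 1721, 769 and 703 TPM (1.57 ± 0.41, adjusted p = 0.0313) and Mep1a, a brush border protease, from 40.3, 19.1 and 45.8 TPM to 296, 127 and 117 TPM (2.28 ± 0.43, adjusted p = 0.0104). Lypd8, which keeps flagellated bacteria from the epithelium and was the most abundant member, rose from 20957, 13274 and 16536 TPM to 26931, 26291 and 32751 TPM (0.78 ± 0.20, adjusted p = 0.0324), within 25606 to 29866 TPM at day 0 or above. Leaving out mouse 12 or 16 reduced the 11 calls to 5 and leaving out mouse 13 to 7. Without mouse 14, 9 members were called higher and 1 lower, and without mouse 15, 8 higher and 1 lower. Fabp2, Mep1a and S100g held throughout.
The carbonic anhydrase genes Car1 and Car4 did not recover by day 14. Car1 was at 1736, 840 and 1202 TPM at day 9 and 1387, 448 and 306 TPM at day 14 (-1.07 ± 0.52, adjusted p = 0.191), against 3094 to 4726 TPM at day 0 (-2.81 ± 0.43, adjusted p = 0.0139 against day 0). Car4 was at 2273, 1296 and 2103 TPM and 2498, 1590 and 2197 TPM (0.16 ± 0.26, adjusted p = 0.706), against 3802 to 5674 TPM at day 0. Car2, by contrast, was called higher (0.99 ± 0.22, adjusted p = 0.0174). In all, 6 of the 25 colonocyte genes were below day 0 at day 14 (1.81% of all tested genes) and 2 above (2.55%).

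Salt and water transport genes rose in part, 5 of 22 being higher (6.37% of all tested genes) and none lower, with a median of 0.55. Slc5a8, which takes up short-chain fatty acids with sodium, was at 21.9, 21.8 and 29.0 TPM at day 9 and at 110, 103 and 91.2 TPM at day 14 (2.03 ± 0.19, adjusted p = 0.00188), a level that uninjured mice also had (71.6 to 104 TPM). The phosphate carrier gene Slc20a1 rose from 21.9, 35.6 and 38.1 TPM to 347, 104 and 86.4 TPM (2.20 ± 0.49, adjusted p = 0.0188), with mouse 14 far above the others. Slc15a1, a peptide transporter, changed by 1.74 ± 0.30 (adjusted p = 0.00815), Best2, the bicarbonate channel of goblet cells, by 1.84 ± 0.45 (adjusted p = 0.0253) and the sodium-hydrogen exchanger gene Slc9a2 by 1.23 ± 0.28 (adjusted p = 0.0189).
The sodium channel gene Scnn1a stayed low, at 34.6, 25.4 and 38.6 TPM and 56.2, 51.2 and 25.5 TPM (0.36 ± 0.32, adjusted p = 0.466), against 75.3 to 143 TPM at day 0. It was one of 8 of the 22 genes that were below day 0 at day 14 (1.81% of all tested genes); none was above. With TMM factors 8 members rather than 5 were called higher than at day 9, and without mouse 12, 13 or 16 there were 3.

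Goblet cell genes rose in number: 14 of 21 were higher at day 14 (6.37% of all tested genes) and 1 lower, with a median of 1.05. Klk1, a kallikrein of goblet cells, was at 425, 298 and 479 TPM at day 9 and at 2974, 1655 and 2393 TPM at day 14 (2.53 ± 0.27, adjusted p = 0.00194). Clca1, a protease that processes the mucus layer, rose from 1952, 1121 and 1469 TPM to 6111, 3500 and 3433 TPM (1.50 ± 0.29, adjusted p = 0.0110), and Atoh1, the transcription factor that commits cells to the secretory fate, from 5.89, 5.66 and 7.19 TPM to 13.2, 24.6 and 16.2 TPM (1.35 ± 0.25, adjusted p = 0.0102). The day 14 values of all 3 overlapped those of day 0, and their calls held with each mouse left out.
Muc2 and Spink4 went above uninjured levels. Muc2 was at 813, 995 and 956 TPM at day 9 and at 1170, 2899 and 2202 TPM at day 14 (1.09 ± 0.31, adjusted p = 0.0432), against 473 to 872 TPM at day 0 (1.47 ± 0.31, adjusted p = 0.0362 against day 0). Spink4, a protease inhibitor of goblet cells, was at 1214, 884 and 1144 TPM and then at 1842, 3639 and 7120 TPM (1.76 ± 0.43, adjusted p = 0.0247), against 897 to 1377 TPM at day 0. Mouse 14 was the lowest of the day 14 mice in both, and both calls were lost when any mouse other than 14 was left out. Zg16, the most abundant member, overlapped, at 17050, 8381 and 11387 TPM and 16611, 11722 and 14227 TPM (0.26 ± 0.27, adjusted p = 0.552).
The exception was Ang4, an antimicrobial ribonuclease, which fell from 1.98, 4.62 and 5.48 TPM to 1.49, 0.134 and 0.395 TPM (-1.60 ± 0.38, adjusted p = 0.0220). Without mouse 12 or 13, 6 goblet cell genes were called higher, and without mouse 15 or 16, 9.

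Genes of enteroendocrine cells gave few calls: of 12 tested, 2 were higher (6.37% of all tested genes) and 1 lower (13.3%). Gcg, the precursor of GLP-1 and GLP-2, of which the latter is a growth factor for the gut, was at 106, 128 and 122 TPM at day 9 and at 31.3, 45.4 and 46.5 TPM at day 14 (-1.53 ± 0.21, adjusted p = 0.00364). Uninjured mice had 10.2 to 14.9 TPM, so that Gcg was still raised at day 14 (1.67 ± 0.20, adjusted p = 0.00635 against day 0). Pyy, which is made in the same L cells, did not fall with it, at 616, 557 and 557 TPM and 601, 926 and 665 TPM (0.32 ± 0.20, adjusted p = 0.298), and it too was above its day 0 range of 187 to 281 TPM. The secretory granule gene Scg2 went from 4.01, 2.27 and 2.51 TPM to 8.29, 8.22 and 7.18 TPM (1.20 ± 0.22, adjusted p = 0.00991), and Scgn changed by 0.93 ± 0.19 (adjusted p = 0.0139). Gcg and Scg2 held with each mouse left out.

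Tuft cells, the chemosensory cells, were poorly measured: 6 of 14 list genes could be tested, and Il25 was listed at 0 in the 6 libraries. Of the 6, 2 were lower, against 13.3% of all tested genes, and none was higher: Alox5ap (-1.67 ± 0.38, adjusted p = 0.0197) and Avil (-1.28 ± 0.32, adjusted p = 0.0273). Both calls were lost without mouse 12 or 16. Alox5ap also belongs to leukocytes.

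Many detoxifying enzymes and transporters rose. Of 23 tested xenobiotic metabolism genes, 12 were higher (6.37% of all tested genes) and 1 lower, with a median of 1.09. Sult1a1, a sulfotransferase for phenols, was at 22.3, 4.83 and 18.2 TPM at day 9 and at 161, 124 and 155 TPM at day 14 (3.42 ± 0.47, adjusted p = 0.00376), which was the uninjured level (126 to 158 TPM). The carboxylesterase gene Ces2a rose from 39.3, 15.0 and 39.7 TPM to 410, 127 and 204 TPM (2.89 ± 0.49, adjusted p = 0.00730) and Kyat1, an aminotransferase gene, from 13.7, 9.14 and 19.5 TPM to 124, 75.7 and 78.5 TPM (2.65 ± 0.30, adjusted p = 0.00243). Mouse 12 was the lowest of the 6 in each of these 3 genes. Abcb1a, the drug efflux pump P-glycoprotein, changed by 2.16 ± 0.51 (adjusted p = 0.0224) and Cyp3a13 by 1.84 ± 0.34 (adjusted p = 0.00966).
The one that fell was Gsta4, which conjugates lipid peroxidation products to glutathione, from 69.8, 67.9 and 58.3 TPM to 28.2, 33.7 and 28.9 TPM (-1.09 ± 0.17, adjusted p = 0.00635). Without mouse 12 there were 7 higher calls. Against day 0, 4 of 25 tested members were lower at day 14 (1.81% of all tested genes) and none higher, with a median of -0.47; Kyat1 and Cyp2s1 were among the 4. Cytochrome, carboxylesterase and glutathione transferase families hold close paralogs, among which reads may be split.

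Of the 12 genes with the largest rise, leaving out immunoglobulin and predicted genes and genes under a mean of 8 TPM, 8 lay outside the lists, and several of these are metabolic enzymes. Cyp2c68, a cytochrome P450, was at 10.2, 5.62 and 15.6 TPM at day 9 and at 236, 99.5 and 156 TPM at day 14 (3.86 ± 0.40, adjusted p = 0.00194). Pck1, the enzyme that commits oxaloacetate to gluconeogenesis, rose from 5.19, 1.84 and 4.98 TPM to 79.4, 40.9 and 34.8 TPM (3.39 ± 0.40, adjusted p = 0.00248), and Dio1, which activates thyroid hormone, from 9.44, 5.10 and 10.5 TPM to 115, 50.4 and 56.4 TPM (2.95 ± 0.36, adjusted p = 0.00282). In these 3 enzymes mouse 14 was the highest of the 6, and mouse 12 the lowest. Btnl1, a butyrophilin-like protein that maintains intraepithelial γδ T cells, rose from 0.666, 0.110 and 0.163 TPM to 15.7, 9.30 and 11.1 TPM (3.31 ± 0.26, adjusted p = 0.00188), above the 4.20 to 6.40 TPM of day 0 (1.03 ± 0.22, adjusted p = 0.0351). Every day 9 mouse was under 1 TPM of Btnl1, which therefore entered the test against day 9 only through the day 14 mice. Nxpe2 and Nxpe4 (3.65 ± 0.38 and 2.86 ± 0.26), Cyp2f2 (3.05 ± 0.30) and the pentraxin gene Mptx1 (2.91 ± 0.32) were among the same 12 genes. Mptx1, at 415 to 857 TPM on day 14, remained below its 1467 to 2342 TPM at day 0 (adjusted p = 0.0128).

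Of the transcription factors of intestinal identity, 3 of 23 were higher (6.37% of all tested genes), all of them nuclear receptors, and none lower. Vdr, the vitamin D receptor, was at 39.3, 25.9 and 55.1 TPM at day 9 and at 147, 140 and 86.6 TPM at day 14 (1.64 ± 0.31, adjusted p = 0.0110), below the 207 to 454 TPM of day 0 (-1.40 ± 0.28, adjusted p = 0.0291). Nr1i3 (CAR), a sensor of foreign compounds, went from 0.753, 0.146 and 0.412 TPM to 3.99, 2.41 and 2.40 TPM (1.45 ± 0.24, adjusted p = 0.00683). With every day 9 value under 1 TPM, Nr1i3 entered the test only through the day 14 mice. Nr1i2 (PXR), a related sensor, went from 17.4, 17.3 and 19.3 TPM to 29.1, 27.6 and 26.3 TPM (0.59 ± 0.17, adjusted p = 0.0419), a call that was lost whichever mouse was left out. Hnf4a, a factor that maintains the colonocyte state, was at 80.7, 102 and 104 TPM and 142, 153 and 113 TPM without being called (0.50 ± 0.19, adjusted p = 0.107), and Cdx2 overlapped between days (-0.44 ± 0.38, adjusted p = 0.454). With TMM factors 9 of the 23 were called higher.

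Energy metabolism changed in few genes. In fatty acid oxidation and ketogenesis, 3 of 21 were higher (6.37% of all tested genes) and 1 lower (13.3%). Acadm, the medium-chain acyl-CoA dehydrogenase, was at 41.3, 35.4 and 45.8 TPM at day 9 and at 104, 73.1 and 83.2 TPM at day 14 (1.06 ± 0.20, adjusted p = 0.0105). Acsl5, which activates fatty acids, fell from 62.7, 113 and 83.5 TPM to 25.9, 50.9 and 42.1 TPM (-1.12 ± 0.30, adjusted p = 0.0356). Of 24 respiratory chain genes, the single call was the coactivator gene Ppargc1a, not a subunit, at 5.87, 2.50 and 4.86 TPM and 31.0, 14.4 and 10.6 TPM (1.78 ± 0.41, adjusted p = 0.0199). In cholesterol synthesis 1 of 21 was called, the sterol sensor gene Insig1 (0.83 ± 0.18, adjusted p = 0.0180), and in the unfolded protein response 1 of 21, Atf4, which fell (-0.64 ± 0.19, adjusted p = 0.0491), a call lost in 5 of the 6 fits with a mouse left out. With TMM factors 3 genes of the unfolded protein response were higher and 2 lower. The medians of these 3 lists were -0.01, -0.07 and -0.44, and those of the respiratory chain and cholesterol lists became positive with TMM factors (0.18 and 0.11).

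Few junction and matrix genes were called. Of 19 claudin and tight junction genes, 2 were higher (6.37% of all tested genes): the pore-forming claudin gene Cldn15, at 4.35, 6.55 and 11.3 TPM and 11.3, 30.0 and 22.8 TPM (1.40 ± 0.41, adjusted p = 0.0451), and the colonocyte claudin gene Cldn23 (0.77 ± 0.21, adjusted p = 0.0381). The scaffold gene Tjp1 (ZO-1) overlapped (0.11 ± 0.26, adjusted p = 0.811). Of 25 collagen and matrix genes, 2 were lower (13.3% of all tested genes): Timp1, an inhibitor of matrix metalloproteinases, went from 12.7, 23.1 and 20.5 TPM to 2.33, 7.90 and 5.24 TPM (-1.75 ± 0.38, adjusted p = 0.0165), and Mmp3 (stromelysin) from 12.0, 6.63 and 7.95 TPM to 2.50, 4.05 and 1.49 TPM (-1.44 ± 0.31, adjusted p = 0.0165). No collagen gene was called; Col1a1 was at 3.00, 9.11 and 8.15 TPM and 7.37, 10.2 and 5.60 TPM (0.25 ± 0.38, adjusted p = 0.692). Among 15 stromal signal genes, Hgf, a growth factor for epithelium, and Sfrp1, a Wnt antagonist, were lower (-0.75 ± 0.20, adjusted p = 0.0327, and -0.78 ± 0.19, adjusted p = 0.0240). None of these 6 calls held with every mouse left out in turn.

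Markers of other cells and tissues that a cut section could hold showed few calls. None of 13 smooth muscle genes was called (median -0.06), their summed abundance being 636 to 939 TPM at day 9 and 532 to 774 TPM at day 14. None of 8 endothelial, 3 glial and neuronal and 4 fat cell genes was called, and the fat cell marker Lep was listed at 0 in the 6 libraries. With 6.37% of all tested genes higher and 13.3% lower, no call in lists this short says little. Of 7 tested squamous genes, 3 were lower (13.3% of all tested genes): Krt13 (7.43, 9.05 and 5.75 TPM, then 0.550, 2.10 and 3.04 TPM; -1.63 ± 0.35, adjusted p = 0.0172), Dsg3 (-1.04 ± 0.27, adjusted p = 0.0321) and Krt14 (-0.84 ± 0.21, adjusted p = 0.0261). None of the 3 calls held with every mouse left out in turn, all being lost without mouse 12. The basal squamous genes Krt5 and Trp63 were at no more than 0.638 and 0.0515 TPM in the 6 libraries.

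The called genes were set against the range of the 4 uninjured mice. Of the 1640 genes that fell from day 9, 1541 had been above the day 0 range at day 9, and at day 14 the values of 1444 (88.0%) overlapped the day 0 values, 156 lay above and 40 below. Of the 785 that rose, 653 had been below the day 0 range at day 9, and at day 14 489 (62.3%) overlapped, 170 were still below and 126 were above. Overlap was counted as soon as the ranges met, so a single day 14 mouse could be enough, and it does not mean a full return. Rrm2 counted as overlapping through mouse 14, at 1.20 TPM against 1.00 to 2.30 TPM at day 0. Mice 15 and 16, at 8.15 and 4.00 TPM, lay above that range. The comparisons share the day 14 mice, and the difference between these shares was not tested. The share of all tested genes that overlapped day 0 was not counted. The genes were also chosen for differing between day 9 and day 14, so these counts are a description only. Directly against day 0, 529 of 12135 genes were called at day 14 (4.36%), 309 higher and 220 lower. That number rested on single mice: it was 62 without mouse 16, 103 without mouse 15, 1365 without mouse 14, 1252 without day 0 mouse 4, and 135 to 145 without day 0 mouse 1, 2 or 3. It was 1180 with TMM factors (603 higher, 577 lower).

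The rectum of the same 6 mice gave fewer calls. There, 1054 of 13115 genes were called between day 9 and day 14 (8.04%), 435 higher (3.32%) and 619 lower (4.72%). Leaving out mouse 11, 12, 13, 14, 15 or 16 changed this to 199, 75, 0, 695, 432 or 79. In rectum 15 of 28 cell cycle genes were lower and none higher (median -1.43, mid-colon -2.37), 10 of 26 colonocyte genes higher (median 1.11, mid-colon 0.79), 10 of 23 xenobiotic genes higher (1.25, mid-colon 1.09) and 7 of 20 goblet cell genes higher (1.05 in both). Aurka changed by -1.41 ± 0.33 in rectum and by -3.03 ± 0.34 in mid-colon. Macrophage genes had a median of -1.42 in rectum, with 7 of 22 lower, and of -0.30 in mid-colon, and MHC class II genes one of 0.41 with no call in rectum and 1.02 in mid-colon.
The difference itself, tested as an interaction, passed the threshold in 0 of 13524 genes by limma, also with the mouse as a replicate block (0 calls), with 706 genes (5.22%) at an unadjusted p under 0.05, or 1525 with the block. Fitting all days at once called 12 genes. Among the list genes with an unadjusted p under 0.05 were Aurka (-1.61 ± 0.51, mid-colon minus rectum, adjusted p = 0.819) and the macrophage gene Adgre1 (1.16 ± 0.32, adjusted p = 0.819). No gene of these lists is therefore shown to have changed differently in the 2 sections.

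**Figure D4:**
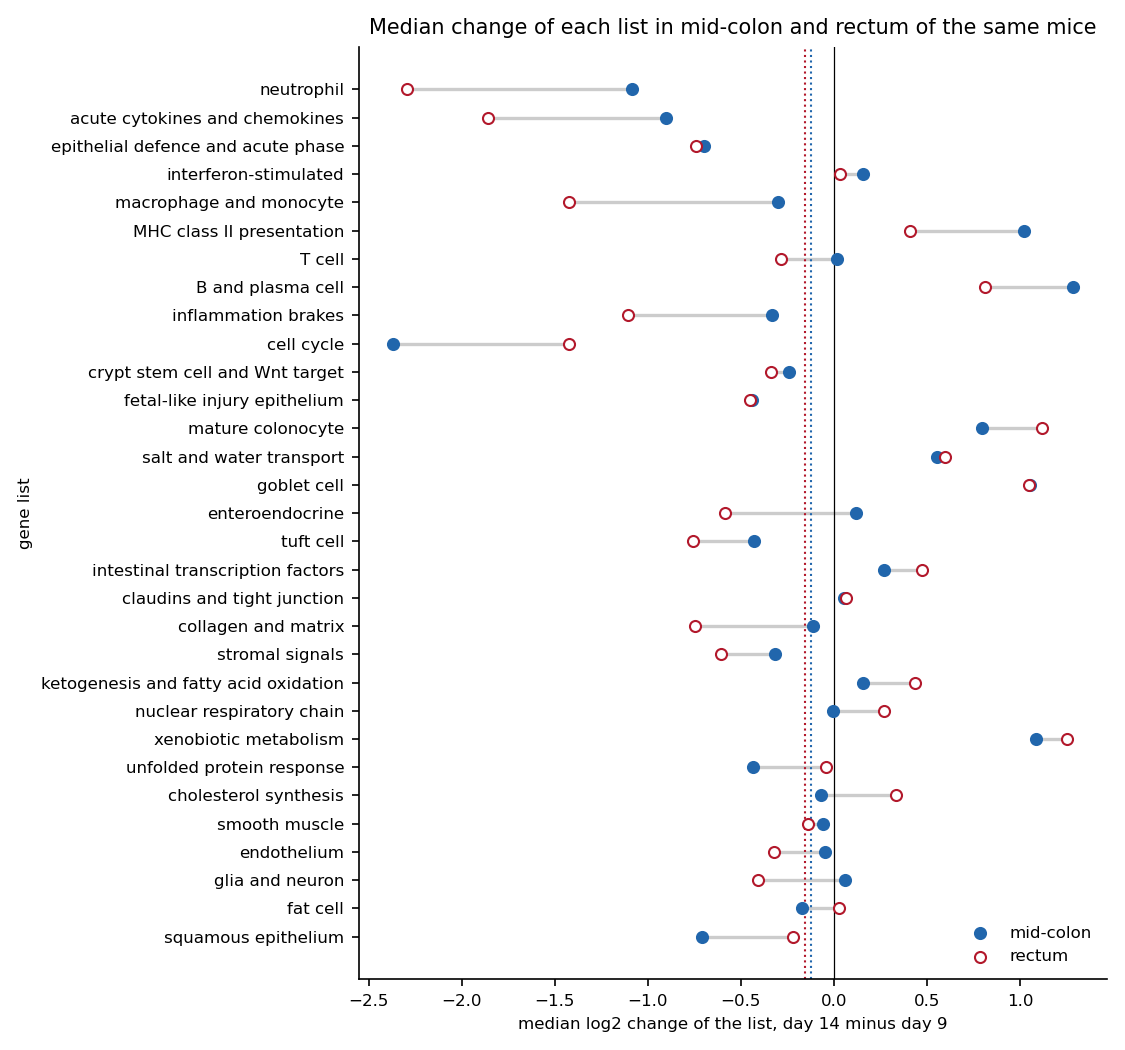
Median log2 change from day 9 to day 14 of each gene list in mid-colon (filled blue) and in rectum (open red), with dotted lines at the median over all tested genes of each section. The cell cycle list is lowest among mid-colon medians at -2.37, and the neutrophil list among rectum medians at -2.29.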

How the data were processed

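RNA was sequenced from mid-colon mucosa and other sections of mice after DSS (stranded mRNA libraries, single-end reads of 75 bp, per the labels' protocols). The authors deposited 1 table of transcript abundances whose signal values are TPM, with CASAVA, kallisto and mm10 listed in the submitters' processing notes and no versions. Of 126860 table lines, 37344 had no values and 1318 repeated another line. The remaining 88198 transcripts were summed to 30452 genes, and 1284 transcripts without a gene were left out. TPM keeps no read counts, so the depth and its precision are unknown and no interval or detection floor is given.

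A gene was tested if the number of samples reaching 1 TPM was no lower than the size of the smaller group. Tests were run with limma (version 3.58.1, R 4.3.3) on values transformed as log2(TPM + 1) (empirical Bayes prior following mean expression, two-sided, Benjamini-Hochberg over all tested genes, threshold 0.05), with only the samples of the groups compared. The scripts were tested on simulated data. Section differences were tested as an interaction; mid-colon and rectum came from the same mouse per the labels, and each mouse's sections deviated together (r across genes 0.161 to 0.572, above those with the other mice of that day), so the mouse was also used as a block. The day 9 and day 14 groups hold different mice and cannot be paired. Alternatives were pseudocounts of 0.1 and 0.5, filters of none and 5 TPM, TMM scaling factors (trimmed mean of M values, written out from its formula), removal of mitochondrial and immunoglobulin genes, all days in one fit, a prior with no trend, and leaving out each mouse.

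Named genes are the members of 31 lists (624 of 626 genes matched by symbol) and the 12 largest rises and 12 largest falls among called genes with a mean of at least 8 TPM in the higher group, no overlap and a proper symbol (no predicted genes and no immunoglobulin genes). In the interaction no gene could be named. Some genes that the rule names are not reported here. The comparison, the members and the lists were chosen with earlier results of these data known. Motifs were searched in RefSeq promoter sequences. Tables and figures came from Python 3.11.15 (pandas 2.3.3, numpy 2.4.6, matplotlib 3.10.9).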

Additional observations from a re-analysis of the deposited data

Results flagged for a closer look

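In 2 of the 24 genes named for the largest changes, 1 of the 4 uninjured mice lay apart from the other 3. Hells was at 0.529, 0.551, 0.633 and 2.24 TPM at day 0, where mouse 3 had the 2.24 TPM, a gap of 0.939 of the range. Krt36 was at 0.467 TPM in mouse 4 and at 1.05, 1.14 and 1.15 TPM in the others, a gap of 0.846 of the range. With chance alone, about 1 in 20 such groups meets this criterion. Both genes were at 19.2 TPM or more in each day 9 mouse.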

How the results depend on the processing

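Among 150 called genes of the lists and the largest changes, 76 were called with every mouse left out in turn, 144 with TMM factors and 81 with no filter on low values; over 7454 recomputed values of 541 tested genes none changed direction while called. The mid-colon count of 2425 fell to 1510 with no filter, and to between 1078 and 2364 with a mouse left out. Other settings gave 2157 to 3280. Against day 0, the 529 calls became 239 with no filter, 318 with a 5 TPM filter, 1180 with TMM factors, 872 with all days in one fit, and 62 to 1365 with a mouse left out. In rectum, the 1054 calls became 114 with no filter, 1714 with TMM factors, 3907 with all days in one fit, and 0 to 695 with a mouse left out. The interaction had 0 calls under every setting run except all days in one fit (12), and 0 to 0 with a mouse left out. The replicate block, possible only for the interaction, gave 0 calls and changed no call. No paired analysis was possible for day 9 against day 14 because these are different mice. The cause of these differences was not tested. With 3 mice a day and unknown depth, genes near 1 TPM and genes that vary between mice are measured with the least precision.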
